A study of Mus musculus with 8 samples.

Results

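Microglia from PRMT1FL mice on a cuprizone (CPZ) diet were sorted by surface CD11c, and the CD11c high library was set against the CD11c low library, 1 library each. Of 25239 genes in the deposited table, 11372 had a mean of at least 10 over both libraries and were kept. Of these, 661 genes held over 0.3 reads per base of their transcript in at least 1 library and were treated apart as dense genes, because duplicate reads had been removed and depth differed. The remaining 10711 genes carry the main counts.

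Bulk RNA-seq was made from microglia sorted as CD11b+/CD45inter cells, and the series holds 8 libraries in 5 groups. Both CPZ libraries compared came from PRMT1FL mice, floxed for Prmt1 without a Cre driver. The mice were given chow with 0.2% cuprizone for 5 weeks, which the labels start in mice 4 to 6 weeks old. The study's methods instead start the diet 2 weeks after tamoxifen, given at 5 to 6 weeks of age. The other libraries serve as background and are 1 PRMT1Cx3cr1-KO CPZ CD11c low library, 2 PRMT1Cx3cr1-KO normal-diet libraries and 3 PRMT1FL normal-diet libraries labelled 11 weeks. PRMT1Cx3cr1-KO mice are floxed for Prmt1 and also carry a Cx3cr1-driven, tamoxifen-dependent Cre, and the study gave tamoxifen to both genotypes. The labels do not say whether a library came from 1 animal or a pool, so the p-values rest on a spread between libraries that could be technical.

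Cuprizone binds copper, and feeding it causes death of oligodendrocytes and loss of myelin in the brain. Microglia, the resident macrophages, then clear myelin debris and take on a disease-associated state with raised lipid-handling, lysosomal and phagocytic genes and reduced homeostatic genes. CD11c, an integrin alpha chain encoded by Itgax, marks many such cells and is shared with dendritic cells.

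The CD11c high library held 1579989 reads in genes and the CD11c low library 3470406, a ratio of 2.20 for low over high, and the other libraries held 2484612 to 3520015. Ratios below are CD11c high over CD11c low on the deposited scale, in which both columns share 1 total, with exact 95% intervals that cover counting error only. A gene passed the size rule when its ratio was at least 2 in either direction and the interval left out 1. Between normal-diet libraries of 1 group, 0.901% to 2.62% of genes passed the same rule, against 9.36% between CD11c high and low. The normal-diet libraries were all deeper than CD11c high, so these shares were not taken at equal depth. The p-values given here come from a limma fit over the 8 libraries, which assumes that each lone CPZ library varies like the normal-diet libraries. Genes were called by it at an adjusted p under 0.05 and an absolute log2 fold over 1.

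Most differences were reductions in CD11c high. By the size rule 49 of 10711 genes were higher (0.457%) and 954 were lower (8.91%). Of the 954, 553 lay in the quintile of genes with the lowest mean value and 1 in that with the highest. The median log2 ratio of the 10711 genes was -0.26. Scaling the same reads by median of ratios moved every ratio by 0.25 on the log2 scale and gave 128 higher and 562 lower, so the higher genes made up 18.55% of those past the rule, against 4.89% on the deposited scale. The limma fit called 16 of 10645 genes higher (0.15%) and 110 lower (1.03%). Leaving out PRMT1FL normal-diet replicate 1 gave 46 higher and 190 lower, and leaving out PRMT1FL normal-diet replicate 2 gave 4 and 57. Without PRMT1Cx3cr1-KO normal-diet replicate 1 the counts were 7 and 58, and without replicate 2 of that group they were 5 and 56.

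Only 4 genes outside the dense group passed both the size rule and the fit as higher, namely Postn, Itgax, Cybb and Itga4. Postn encodes periostin, a secreted matrix protein. It had 303 reads in CD11c high and 147 in CD11c low, a ratio of 4.53 (3.71 to 5.55). Scaled over the 8 libraries, Postn stood at 588 in CD11c high, 109 in CD11c low, 44.5 in the PRMT1Cx3cr1-KO CPZ CD11c low library, 53.3 and 38.9 in PRMT1Cx3cr1-KO on normal diet, and 63.7, 45.6 and 53.7 in PRMT1FL on normal diet. CD11c high was the highest library and did not overlap the other 7. The fitted log2 fold of Postn was 2.42 ± 0.31 (SE, limma adjusted p = 0.00934).

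Cybb encodes the catalytic subunit of the phagocyte NADPH oxidase. It had 827 reads in CD11c high and 826 in CD11c low, a ratio of 2.20 (1.99 to 2.42) after scaling for depth. The scaled values of Cybb were 1605 in CD11c high, 613 in CD11c low, 803 in PRMT1Cx3cr1-KO CPZ CD11c low, 135 and 164 in PRMT1Cx3cr1-KO on normal diet, and 160, 179 and 149 in PRMT1FL on normal diet. All 3 CPZ libraries lay above all normal-diet libraries, with CD11c high on top. Its fitted log2 fold was 1.39 ± 0.18 (limma adjusted p = 0.00934). Itga4, the alpha chain of an adhesion receptor for VCAM and fibronectin, had 121 reads in CD11c high and 119 in CD11c low (ratio 2.23, 1.72 to 2.90, fitted log2 fold 1.40 ± 0.26, limma adjusted p = 0.0295). Its scaled level was 235 in CD11c high and 88.3 in CD11c low, with 192 in PRMT1Cx3cr1-KO CPZ CD11c low. The call of Itga4 was lost under 4 of 16 alternatives, with the common total and without PRMT1FL normal-diet replicate 2 or either PRMT1Cx3cr1-KO normal-diet library (limma adjusted p up to 0.0597). That of Cybb was lost under 1 of 17, quantile normalization (0.0655).

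Itgax encodes the sorted protein, so its difference follows the gate and is given as a description. It had 964 reads in CD11c high and 884 in CD11c low, a log2 ratio of 1.26 (1.13 to 1.39). Its scaled level was 1871 in CD11c high, 656 in CD11c low and 345 in PRMT1Cx3cr1-KO CPZ CD11c low, and between 50.0 and 78.8 in the 5 normal-diet libraries. CD11c low cells on CPZ thus also carried Itgax transcript above every normal-diet library.

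The fit called 12 more genes higher whose ratio was under 2 on the deposited scale. Among them were Kcnj2, a potassium channel gene, the motor protein gene Myo5a, Ccdc88a, Gas2l3, Fam214a, Zfp704, Wdr89, the elongation factor gene Eef1a1, and Rps4x, Rpl7 and Rplp2-ps1. Rps4x, Rpl7, Rplp2-ps1 and Eef1a1 have near-identical copies in the genome, so their reads are uncertain. Rplp2-ps1 lies within Wdr89 on the same strand, and with 144 reads in CD11c high and 185 in CD11c low, against 153 and 199 for Wdr89, both genes may count the same reads. Myo5a stood at 1659 in CD11c high, 812 in CD11c low, 1037 in PRMT1Cx3cr1-KO CPZ CD11c low and 177 to 246 on normal diet, and Kcnj2 at 2047, 881, 956 and 487 to 672 in the same order.

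**Figure D1:**
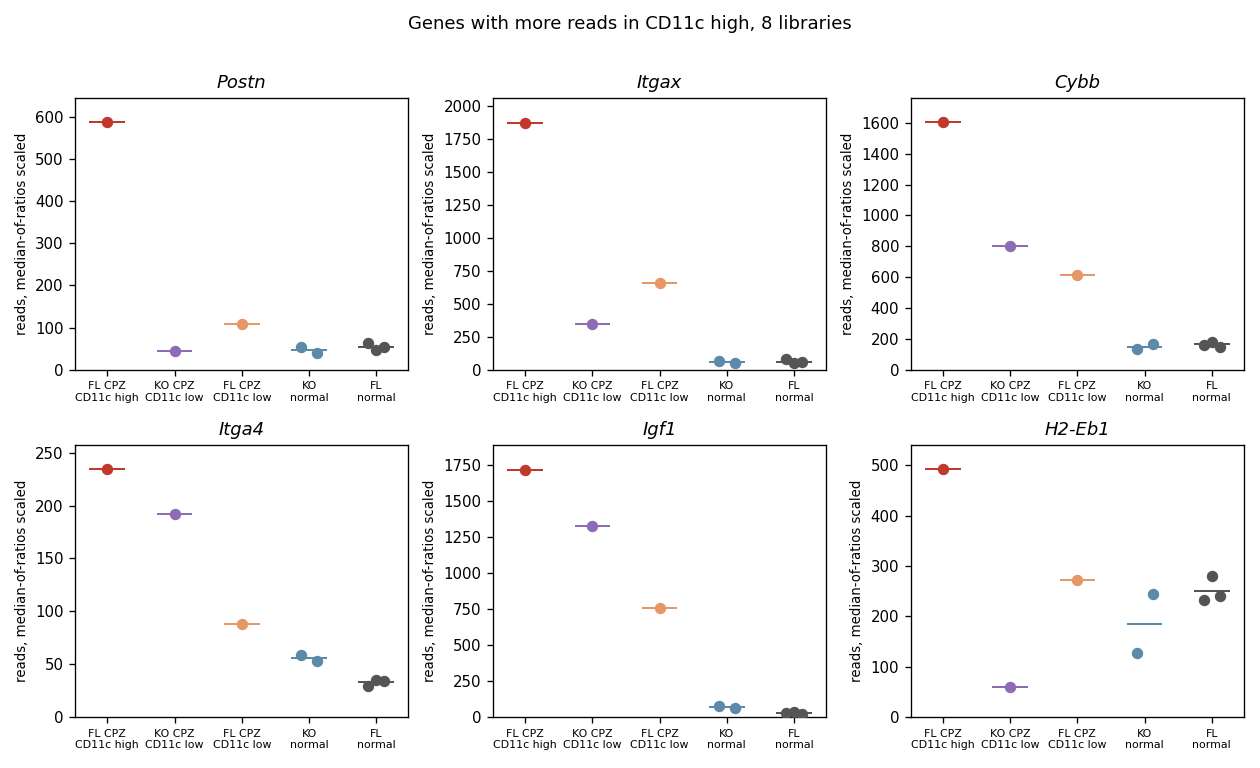
Reads scaled by median of ratios (vertical axes, from 0) for Postn, Itgax, Cybb, Itga4, Igf1 and H2-Eb1 in the 5 groups of libraries. Points are libraries and bars are group means, and CD11c high is the highest library in each panel, at 588 for Postn and 1871 for Itgax.

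The promoters of the 4 genes are shown because these genes passed both rules. Each is the 250 bases before the RefSeq start nearest to the deposited transcript start, read 5′ to 3′ on the gene's strand, in GRCm38.p6. All 4 genes matched the RefSeq table. Capitals mark TGANTCA, the AP-1 motif, searched on both strands.
Itgax (chr7:128129300-128129549, plus strand): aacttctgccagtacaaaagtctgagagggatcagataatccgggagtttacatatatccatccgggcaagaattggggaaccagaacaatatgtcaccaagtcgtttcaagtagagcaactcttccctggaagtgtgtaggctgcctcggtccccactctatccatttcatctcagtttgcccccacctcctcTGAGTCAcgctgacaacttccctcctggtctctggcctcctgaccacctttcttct
Cybb (chrX:9469325-9469574, minus strand): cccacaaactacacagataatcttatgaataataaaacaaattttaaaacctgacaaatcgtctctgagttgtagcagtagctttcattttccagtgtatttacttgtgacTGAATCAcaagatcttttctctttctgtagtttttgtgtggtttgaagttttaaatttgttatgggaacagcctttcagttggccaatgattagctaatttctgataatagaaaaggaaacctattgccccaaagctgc
Postn (chr3:54359017-54359266, plus strand): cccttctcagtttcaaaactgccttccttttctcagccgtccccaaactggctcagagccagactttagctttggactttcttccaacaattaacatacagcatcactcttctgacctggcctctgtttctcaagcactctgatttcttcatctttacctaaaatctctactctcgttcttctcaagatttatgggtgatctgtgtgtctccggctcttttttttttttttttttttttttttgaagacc
Itga4 (chr2:79255176-79255425, plus strand): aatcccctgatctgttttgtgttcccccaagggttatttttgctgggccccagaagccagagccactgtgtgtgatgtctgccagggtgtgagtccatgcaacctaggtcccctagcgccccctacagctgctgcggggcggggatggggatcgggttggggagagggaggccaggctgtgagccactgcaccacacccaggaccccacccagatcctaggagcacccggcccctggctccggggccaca

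Itgax and Cybb each held 1 match to the AP-1 motif and Postn and Itga4 held none in this window. Of 32851 promoter windows of the same length, 6.75% held one. CCAAT on either strand matched once each in Itgax and Cybb and in 33.85% of all windows, while GAGGAA (23.25% of all windows) and CACGTG (6.02%) matched in none of the 4. A match is a description of the sequence, not a binding site.

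Several genes with fewer reads had ratios above those of Itgax, Cybb and Itga4 but were not called by the fit. Myof, a membrane repair protein, had 104 reads in CD11c high and 52 in CD11c low (ratio 4.39, 3.12 to 6.25, limma adjusted p = 0.0625). Mmp12, the macrophage elastase, had 111 and 59 reads in the same order (4.13, 2.99 to 5.77, adjusted p = 0.243). Kcnk9, a potassium leak channel, had 28 reads in CD11c high and 9 in CD11c low (6.83, 3.13 to 16.5, adjusted p = 0.0602). These 3 genes were near 0 on normal diet, with scaled values up to 13.5 for Myof, 4.45 for Mmp12 and 4.63 for Kcnk9.

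The other genes with counting intervals farthest from 1 were Olfr111, Igf2r, Gdap10, Atp6v0d2, Lnpep, Minar1 and Kcna3. Igf2r, which sorts enzymes to lysosomes, had 88 reads in CD11c high and 61 in CD11c low. Atp6v0d2, a subunit of the lysosomal proton pump, had 65 and 46. Olfr111, an olfactory receptor gene, had 66 and 32, and Gdap10 had 49 and 32. Lnpep, an aminopeptidase of endosomes, had 241 and 212, Minar1 had 140 and 118, and Kcna3, a voltage-gated potassium channel, had 49 and 34. None of these 7 was called by the fit, where their adjusted p ran from 0.0732 for Gdap10 to 0.198 for Atp6v0d2. The order over the CPZ libraries varied, since the scaled level of Kcna3 was 95.1 in CD11c high and 25.2 in CD11c low but 177 in PRMT1Cx3cr1-KO CPZ CD11c low.

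Genes of the disease-associated state had a median above that of all genes. Leaving out Itgax, the gene of the gate, 3 of 22 members outside the dense group passed the size rule as higher (Cybb, Mamdc2 and Atp6v0d2), against 0.457% of all such genes, and 1 as lower, against 8.91%. The lower one was the NAD-consuming enzyme gene Cd38, with 4 reads in CD11c high and 29 in CD11c low. The median log2 ratio of the 22 was 0.53, against -0.26 for all such genes and 0.01 in the quintile of them with the highest mean value. Igf1, a growth factor, had 882 reads in CD11c high and 1015 in CD11c low, a ratio of 1.91 (1.74 to 2.09), and its fitted log2 fold of 1.18 ± 0.34 was not called (limma adjusted p = 0.0907). Scaled, Igf1 was 1711 in CD11c high, 753 in CD11c low and 1322 in PRMT1Cx3cr1-KO CPZ CD11c low, and at most 76.04 on normal diet. Gpnmb, a glycoprotein of lipid-laden phagocytes, had 344 reads in CD11c high and 606 in CD11c low (log2 ratio 0.32).

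The MHC class II genes differed among themselves. The 3 dense members had log2 ratios of 1.09 for Cd74, 0.96 for H2-Aa and 0.60 for H2-Ab1, a median of 0.96 against 0.25 for all dense genes, and the fit called Cd74 and H2-Aa higher. H2-Ab1, a class II beta chain, had 299 reads in CD11c high and 432 in CD11c low, with scaled levels of 580 in CD11c high, 320 in CD11c low and 143 in PRMT1Cx3cr1-KO CPZ CD11c low, and 151 to 234 on normal diet. It was highest in CD11c high and was not called (fitted log2 fold 0.85 ± 0.21, limma adjusted p = 0.0652). Of 10 MHC class II genes outside the dense group, 1 was higher by the size rule (10.0%, against 0.457% of all such genes). Another 1 was lower (10.0%), near the 8.91% of all such genes. The median log2 ratio was -0.16, against -0.26 for all such genes. Its sign turned with scaling, to 0.09 by median of ratios. Ciita, the class II transactivator, had 28 reads in CD11c high and 26 in CD11c low (ratio 2.37, 1.34 to 4.20), and its fit was not called (limma adjusted p = 0.174). Rfxap, a subunit of the complex that binds class II promoters, had 20 and 108 reads and was the lower one. H2-Eb1, another beta chain, had 254 and 368 reads (log2 ratio 0.60, 0.36 to 0.83, limma adjusted p = 0.195), with scaled levels of 493 in CD11c high, 273 in CD11c low and 59.6 in PRMT1Cx3cr1-KO CPZ CD11c low, and 126 to 279 on normal diet.

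Dense genes need a separate reading. The median ratio of reads, high over low, was 0.36 for genes up to 0.1 reads per base, 0.51 for the 374 dense genes at 0.3 to 0.4 and 0.71 for the 72 genes over 0.6. Equal reads in both libraries give a log2 ratio of 1.14, since CD11c low was sequenced more deeply. The median log2 ratio moved with density in step, from -0.34 in the sparsest of these bins to 0.64 in the densest. Among the 661 dense genes the size rule gave 7 higher (1.06%) and 4 lower (0.605%), and the fit called 49 higher (7.41%) and 2 lower (0.303%). How far the removal of duplicates makes up these ratios was not tested directly. A correction that assumes reads spread evenly along each transcript lowered the dense median from 0.25 to 0.14 and the dense genes called higher to 27.

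**Figure D2:**
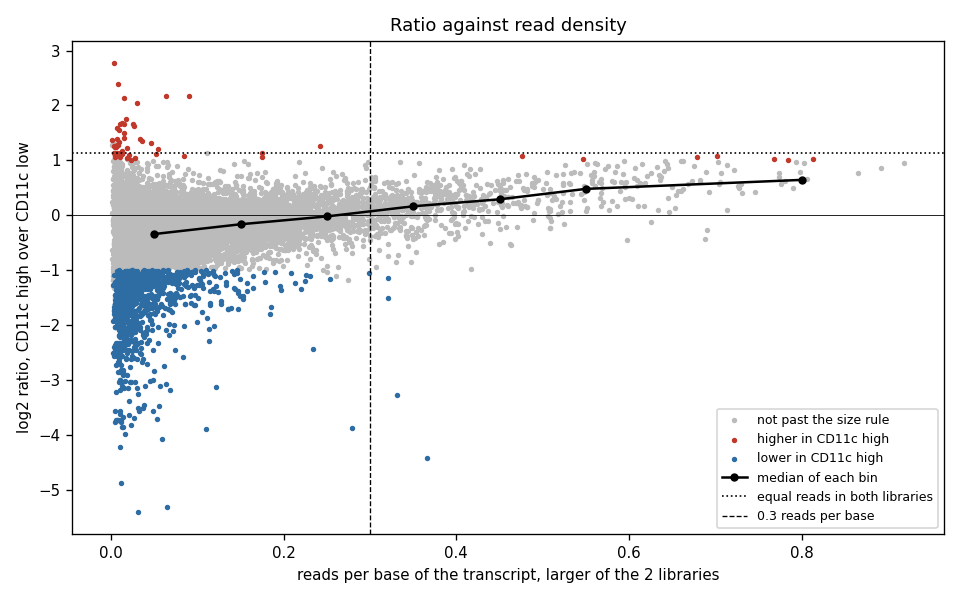
Log2 ratio of CD11c high over CD11c low (vertical axis) against reads per base (horizontal axis, the larger of both libraries), 1 point per gene, genes with 0 reads in CD11c high left out. Medians of the bins climb from -0.34 to 0.64 toward the dotted line at 1.14, where both libraries hold equal reads.

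The 7 dense genes higher by the size rule were Cd74, Apoe, B2m, Ctsd, Ctss, C1qc and C1qa. Apoe, the lipid carrier, had 905 reads in CD11c high and 936 in CD11c low, at 0.68 and 0.70 reads per base. Cd74, the invariant chain of MHC class II, had 643 and 665, and B2m, the light chain of MHC class I, had 551 and 578. The lysosomal proteases Ctsd and Ctss had 1353 and 1459, and 679 and 735. C1qa and C1qc, chains of the first complement component, had 771 and 845, and 786 and 853. With the correction for density, log2 ratios of these genes were 1.11 for Apoe, 1.14 for Cd74 and 0.93 for C1qc, so their size stayed near 1. H2-Aa, a class II alpha chain, had 332 and 374 reads and was called by the fit (log2 fold 1.21 ± 0.27, limma adjusted p = 0.0492), a call lost under 7 of 17 alternatives, the correction for density and leaving out PRMT1FL normal-diet replicate 2 or 3 among them (adjusted p up to 0.173). Csf1, the growth factor of microglia, had 1869 and 2644 (limma adjusted p = 0.0581).

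The 4 dense genes lower in CD11c high by the size rule were 2 stress and signalling genes and 2 neutrophil genes. Gdf15, a stress-induced cytokine gene, had 71 reads in CD11c high and 442 in CD11c low, and the Notch target Hes1 had 95 and 463. Neither was called by the fit (limma adjusted p = 0.085 for Gdf15 and 0.135 for Hes1). S100a8 (6 and 128 reads) and S100a9 (4 and 189) were called lower by the fit, and both calls were lost with no filter on low genes (adjusted p = 0.0597 for S100a8 and 0.0625 for S100a9), that of S100a8 also without PRMT1FL normal-diet replicate 2.

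Phagolysosome genes lay above the median of all genes. Of 11 outside the dense group 1 passed the size rule as higher, Atp6v0d2 (9.09%, against 0.457% of all such genes). None passed as lower, against 8.91%. Their median log2 ratio was 0.29, against -0.26 for all such genes and 0.01 in the quintile with the highest mean value. The 26 dense members had a median of 0.67, against 0.25 for all dense genes. Of 9 leukocyte integrin genes other than Itgax outside the dense group, Itga4 alone passed the size rule as higher, against 0.457% of all such genes. None passed as lower, against 8.91%. Their median was 0.29, against -0.26 for all such genes and 0.01 in the quintile with the highest mean value. Interferon-stimulated genes had none of 61 higher, against 0.457% of all genes outside the dense group. The 3 lower ones were Ly6a, Gbp5 and Gbp7 (4.92%, against 8.91%). The median of the list was 0.11, against -0.26. Of 11 toll-like receptor genes outside the dense group, 1 was higher (9.09%, against 0.457%) and 1 lower (9.09%, against 8.91%). The higher one, Tlr8, had 32 reads in CD11c high and 27 in CD11c low. Its scaled level was 62.1 in CD11c high, 20.0 in CD11c low and 156 in PRMT1Cx3cr1-KO CPZ CD11c low.

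Many genes called lower in CD11c high were also low in the other CPZ libraries. In 65 of the 110 genes called lower by the fit (59.1%, against 35.2% of all 10645 fitted genes outside the dense group) the CD11c low library lay below all 5 normal-diet libraries, in 13 (11.8%, against 28.8%) within their range and in 32 (29.1%, against 36.0%) above it. The PRMT1Cx3cr1-KO CPZ CD11c low library lay below all 5 normal-diet libraries in 79.1% of the 110, against 30.7% of all. The lowest scaled value of the 8 libraries was in CD11c high for 91 of the 110 (82.7%, against 20.7% of all), a count that the choice of genes low in CD11c high favours. Crybb1, a crystallin gene of homeostatic microglia, had 19 reads in CD11c high and 227 in CD11c low. Its scaled values were 36.9 in CD11c high, 168 in CD11c low, 158 in PRMT1Cx3cr1-KO CPZ CD11c low, and 283 to 329 on normal diet (fitted log2 fold -2.16 ± 0.16, limma adjusted p = 5.00e-04).

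Epha2, a receptor tyrosine kinase, had 41 reads in CD11c high and 442 in CD11c low, with scaled values of 79.6 in CD11c high and 328 in CD11c low, against 488 to 627 on normal diet (log2 fold -2.03 ± 0.14). Tlr5, the flagellin receptor, had 4 and 72 reads, at 7.76 in CD11c high, 53.4 in CD11c low and 266 to 310 on normal diet (-2.63 ± 0.18). Gimap6, a GTPase of immune cells, had 3 reads in CD11c high and 86 in CD11c low, a ratio of 0.077 (0.016 to 0.232). These 3 genes share the order CD11c high, CD11c low, normal diet from lowest to highest. The fructose transporter gene Slc2a5 had 81 and 567 reads, and the transglutaminase gene Tgm2 had 69 and 490. Tmem44 had 8 and 156 reads, and Ctnnd2, a catenin gene, had 1 and 65.

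**Figure D3:**
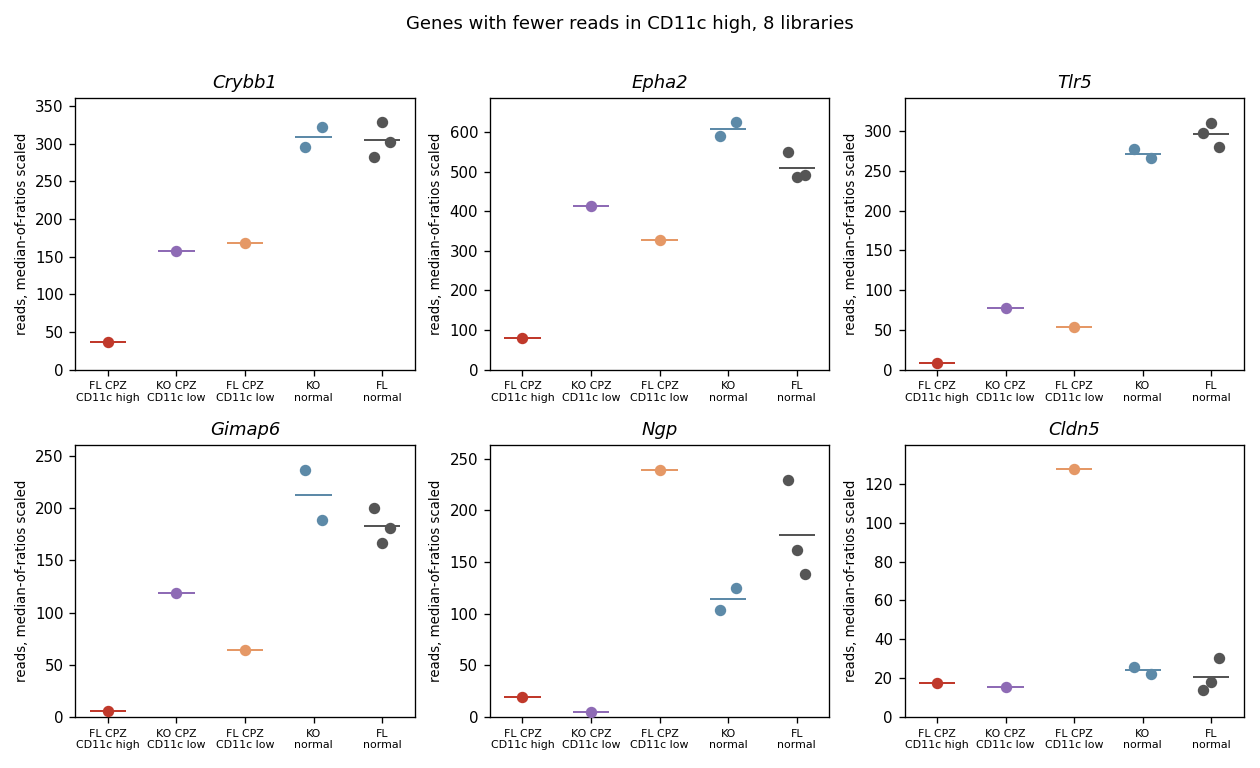
Reads scaled by median of ratios (vertical axes, from 0) for Crybb1, Epha2, Tlr5, Gimap6, Ngp and Cldn5 in the 5 groups of libraries. Points are libraries and bars are group means, and Crybb1 stood at 36.9 in CD11c high, 168 in CD11c low and 283 to 329 on normal diet.

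The homeostatic list split by density. Of 9 members outside the dense group, 3 were lower by the size rule and by the fit (Crybb1, Slc2a5 and Gpr165). That is 33.3%, against 8.91% of all such genes by the size rule and 1.03% by the fit. The median log2 ratio of the 9 was -0.80, against -0.26. The 30 dense members had a median of 0.45, against 0.25 for all dense genes. The fit called 6 of these 30 higher, against 7.41% of all dense genes. Tmem119, a defining marker of microglia, had 491 reads in CD11c high and 1459 in CD11c low (log2 ratio -0.44), while Cx3cr1 had 2252 and 2903 (0.77). All 10 defining markers of microglia were read in all 8 libraries, and 8 of them were dense. Their summed level was 6442.4 CPM (reads scaled to a common library total) in CD11c high and 4521.4 CPM in CD11c low.

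Cell cycle genes lay near the background, with none of 43 higher and 5 lower (11.6%, against 8.91% of all genes), and the fit called none. The 5 were Plk1, Birc5, Cdc20, Tk1 and Tyms, with 8 to 10 reads each in CD11c high and 41 to 60 in CD11c low. The list's median was -0.43 on the deposited scale and -0.18 by median of ratios, against -0.26 and -0.01 for all genes. ATF4 target genes had 4 of 16 lower by the size rule (25.0%, against 8.91% of all genes), Ddit4, Sesn2, Nupr1 and Ddit3, with a median of -0.59. Of these the fit called Sesn2 alone, and that call was lost under 10 of 17 alternatives. Chemokine ligand genes had 3 of 9 lower by the size rule (33.3%, against 8.91% of all genes). They were Pf4, Ccl2 and Cxcl1, and the fit called none of the list. Prmt1 itself, intact in both libraries, had 52 reads in CD11c high and 158 in CD11c low (log2 ratio -0.47, -0.95 to -0.01, limma adjusted p = 0.666).

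Markers of several other cell types were lower in CD11c high than in CD11c low, and those of others were not. Past the size rule as lower were 20 of 25 astrocyte, 14 of 19 oligodendrocyte, 24 of 32 endothelial and mural, 13 of 13 neutrophil and 12 of 24 monocyte and border macrophage markers outside the dense group. Of all genes outside the dense group, 8.91% passed as lower. A marker could pass the filter through the CD11c low library alone. Summed levels take in every list member, dense ones included, so a few abundant members can carry them. They were 1350.0 CPM in CD11c high and 1849.4 CPM in CD11c low for astrocyte markers, with 1149.9 to 1395.9 CPM on normal diet. Oligodendrocyte markers had 989.2 and 1201.6 CPM in the same order, with 721.6 to 988.2 CPM on normal diet. Endothelial and mural markers had 1150.0 and 1705.6 CPM, with 675.8 to 804.5 CPM on normal diet. Neutrophil markers had 730.4 and 931.3 CPM, with 582.1 to 776.8 CPM on normal diet. In PRMT1Cx3cr1-KO CPZ CD11c low these sums were 1117.1, 719.3, 922.3 and 464.9 CPM. For each of these lists CD11c low held the highest sum of the 8 libraries. Median log2 ratios outside the dense group were -1.51 for astrocyte, -1.58 for oligodendrocyte, -1.74 for endothelial and mural and -3.65 for neutrophil markers. Dense members stood at 0.60 (1 astrocyte marker), 0.73 (1 oligodendrocyte marker) and a median of 0.15 (2 endothelial and mural markers). Of 3 dense neutrophil markers, 2 passed as lower. Among the 23 neutrophil markers 8 were at 0 in CD11c high, 1 in CD11c low and 14 in PRMT1Cx3cr1-KO CPZ CD11c low. Also past the rule as lower were 6 of 8 oligodendrocyte progenitor, 2 of 5 neuron and 3 of 11 dendritic cell markers. The summed level of monocyte and border macrophage markers was 3213.9 CPM in CD11c high and 2722.4 CPM in CD11c low. Their median log2 ratio was -1.20 outside the dense group and 0.70 for the 2 dense members. Lymphocyte markers summed to 56.3 CPM in CD11c high and 52.2 CPM in CD11c low. Of 3 lymphocyte markers, 1 passed as higher (33.3%, against 0.457% of all genes outside the dense group) and none as lower (against 8.91%). Neither of the choroid plexus and ependymal markers measured outside the dense group passed the rule. The part of other cells in the lower genes was not tested. Of 954 genes lower by the size rule, 9.75% stood on an other-cell-type list, against 1.30% of all genes outside the dense group. Fewer cells of a type and less RNA per cell cannot be told apart in bulk samples.

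Ngp, a neutrophil granule protein gene, had 10 reads in CD11c high and 322 in CD11c low. Its scaled value was 19.4 in CD11c high, 239 in CD11c low, 4.73 in PRMT1Cx3cr1-KO CPZ CD11c low and 103 to 229 on normal diet. The CD11c low level thus lay just above the normal-diet range. Retnlg and Lcn2, also neutrophil genes, had 0 reads in CD11c high and 91 and 90 in CD11c low, at least 13.8-fold and 13.7-fold lower in CD11c high against a floor of 3 reads in that library. Chil3 had 0 and 63, Ltf had 2 and 176, and Hp had 2 and 74. The scaled value of Retnlg was 67.5 in CD11c low and 0 to 4.07 on normal diet. That of Lcn2 was 66.8 in CD11c low and 22.2 to 52.1 on normal diet. Both were at 0 in PRMT1Cx3cr1-KO CPZ CD11c low. S100b, a glial gene, had 0 reads in CD11c high and 62 in CD11c low (at least 9.41-fold lower). Scaled, S100b was 46.0 in CD11c low, 15.1 in PRMT1Cx3cr1-KO CPZ CD11c low and 6.77 to 8.96 on normal diet. Cldn5, a tight junction gene of brain endothelium, had 9 and 172 reads, with scaled values of 17.5 in CD11c high, 128 in CD11c low and 13.9 to 30.1 on normal diet. Trem1, a myeloid receptor gene, had 1 and 93 reads and was not called (limma adjusted p = 0.0545).

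**Figure D4:**
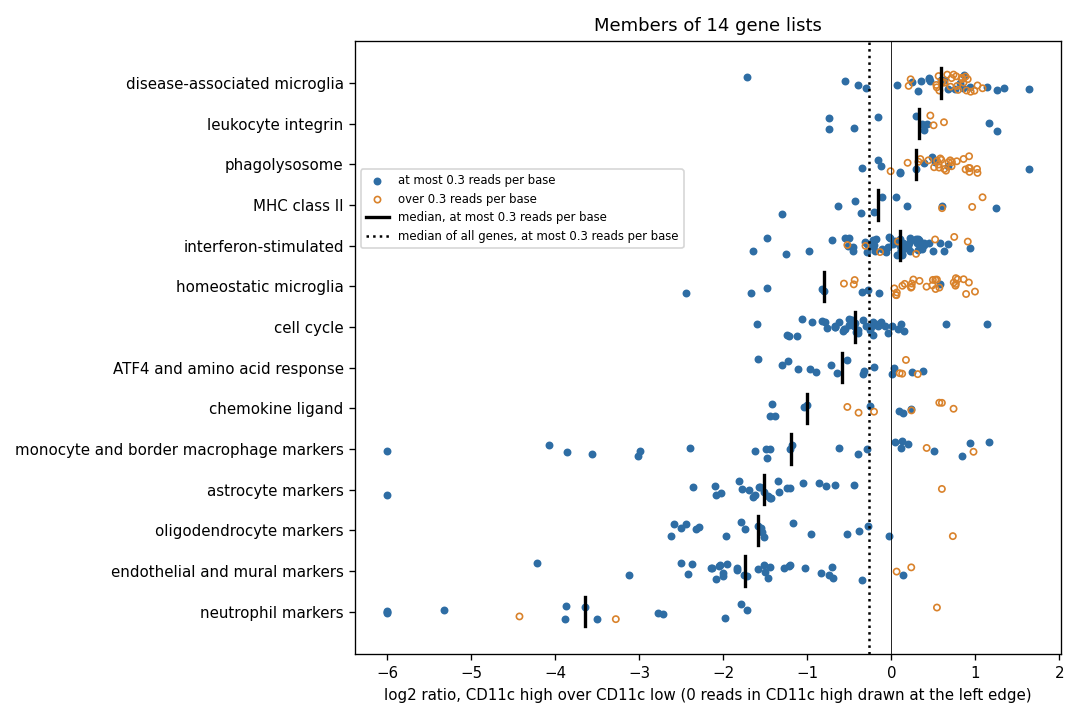
Log2 ratio of CD11c high over CD11c low (horizontal axis) for the members of gene lists (rows), filled for genes up to 0.3 reads per base and open for denser genes. Bars are list medians outside the dense group, from 0.59 for disease-associated genes with Itgax included to -3.65 for neutrophil markers, and the dotted line is the median of all genes outside the dense group, -0.26.

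Ratios also moved with length, GC content and level of the genes. The median log2 ratio was -0.04 in the quintile of genes with the lowest GC content and -0.47 in that with the highest, where 74 and 341 genes were lower by the size rule. It was -0.40 in the shortest quintile and -0.07 in the longest. By mean value it was -0.67 in the lowest quintile and 0.01 in the highest. By the size rule the lowest of these quintiles held 553 lower and 18 higher genes, and the highest held 1 lower and 3 higher. Genes lower by the size rule had a median GC content of 53.8%, against 50.2% for all genes outside the dense group. Centring the ratios in 20 bins of GC content, an alternative chosen after the data were seen, gave 107 genes higher and 494 lower. The part of GC content, length and depth in the results was not tested beyond that.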

How the data were processed

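RNA-seq libraries of sorted mouse microglia were analysed from 6 deposited tables. Per the labels and the methods, the authors aligned reads with Bowtie2, checked them with FastQC 0.11.9, took out duplicates using SAMtools 0.1.19 and counted by gene in HOMER. The strand setting is not given in the sources used here. The authors name hg19 and the labels also GRCm38 and mm10, and the deposited coordinates are mouse GRCm38. The deposited signal for a gene is its read count times 1 library factor, set so that the columns of a table share a total. Dividing by that factor gave whole reads for 100.0% of values (tolerance 0.1). The authors' own fold changes and p-values were not used.

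Ratios and exact 95% intervals came from the CD11c high and low columns of 1 table. The joint fit used recovered reads of 8 libraries, scaled by median of ratios, in limma 3.58.1 (R 4.3.3, eBayes with trend) on log2(value + 1), two-sided with Benjamini-Hochberg adjustment. Folds are on that scale, which understates changes of low genes. The fit left out 85 genes whose reads disagreed between tables by over 1 read and 5%. It was tested on simulated data over 11671 genes, where it recovered 14 of 50 genes changed 2-fold, 43 of 50 changed 4-fold and 48 of 48 changed 8-fold, with 5 false calls. All simulated libraries were given the same spread, estimated from these data, with no removal of duplicates. The simulation therefore cannot check whether the lone CPZ libraries vary like the normal-diet ones. edgeR 4.0.16 and DESeq2 1.42.0 served as alternatives. Named genes were the 12 higher and 12 lower with intervals farthest from 1, genes named by the study, the 6 highest and 6 lowest dense genes, and for each list its most abundant, extreme and called members, with a few others chosen after their values were seen. A gene called by the fit is not reported here. The members and the 36 gene lists were chosen with earlier results of these data known.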

Additional observations from a re-analysis of the deposited data

How the results depend on the processing

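Counts depended on scaling. By the size rule, genes higher and lower in CD11c high numbered 128 and 562 by median of ratios, 107 and 605 by TMM, 32 and 458 with a mean of at least 30, and 107 and 494 with GC bins centred. In the fit they were 3 and 229 with the common total as deposited, 4 and 58 by quantile normalization, and 284 and 285 with no filter. edgeR gave 36 and 97, DESeq2 19 and 31, and the occupancy correction 11 and 73. Leaving out each normal-diet library gave 4 to 46 higher and 56 to 190 lower. The cause was not tested. Of 16 genes called higher, Postn kept its call wherever an alternative gave an adjusted p (DESeq2 gave none), and 38 of 110 called lower did so. Itgax had adjusted p from 1.29e-05 with DESeq2 to 0.139 by quantile normalization. Irf1, not called, turned to a log2 fold of -0.13 with the common total, -0.21 by quantile normalization and -0.047 with the occupancy correction. No paired analysis was possible because each CPZ group has 1 library and carries no replicate number in the labels. With 1 library per group there is no replicate check of the ratios, and at the depth of CD11c high a gene with 0 reads allows up to 3.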
